A study of Mus musculus with 16 samples.

Results

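High-numbered zinc finger genes were followed by guide in 16 RNA-seq libraries of B16F10 mouse melanoma. The members were all genes whose symbol is Zfp followed by a number of 800 or more, letter and pseudogene suffixes included, which gave 77 of the 15653 genes listed in any table. The set was chosen by the normalised counts of 1 of them, Zfp985, which was far lower with the Nlrc5 guide in TDMa culture, so counts and values of members in TDMa culture are a description and no p-value is given for them. The groups were TDM culture with sgNlrc5 or sgScramble, TDMa culture with sgNlrc5 or sgScramble, and TDMa tumours with sgNlrc5 or sgScramble. Each culture group had 2 libraries and each tumour group had 4. All groups were B16F10 melanoma cells carrying a transduced sgRNA, either one against Nlrc5 or a scrambled one. What TDM and TDMa stand for, whether a line is 1 clone, and the strain and age of the tumour hosts are not stated in the labels. The series title concerns targeted demethylation and activation of NLRC5, a transactivator of MHC class I genes.

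Most proteins of this kind carry a row of C2H2 zinc fingers that reads DNA, and many also carry a KRAB domain. A KRAB domain recruits TRIM28, which brings the histone methyltransferase SETDB1, HP1 proteins and, through them, H3K9 methylation. In mice, such genes lie in clusters of recent copies and are best known for silencing endogenous retroviruses and imprinted or methylated loci in embryonic cells. Zfp809 recognises the proline primer binding site of murine leukaemia viruses, Zfp932 represses ERVK elements in mouse embryonic stem cells, and Zfp979 underlies Ssm1b, a mouse modifier of transgene methylation.

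The label was borne out by the annotation. All 77 identifiers matched GENCODE vM21, in which 2 members are pseudogenes, and 73 of the 75 members with a coding sequence held at least 1 match to the C2H2 spacing, with a median of 10 and a highest count of 22. The members lay on 13 chromosomes, and 57 of them fell into 13 groups of neighbours, in which fewer than 30 protein-coding genes separate a member from the next. The group that holds Zfp985 (ENSMUSG00000065999) is on chromosome 4 and has 13 members. In gene order they are Zfp980, Zfp986, Zfp992, Zfp981, Zfp993, Zfp991, Zfp988, Zfp978, Zfp982, Zfp985, Zfp979, Zfp984 and Zfp933. Copies in this group are close. Of their transcript 50-mers, 15.9% in Zfp985, 26.7% in Zfp979, 43.0% in Zfp992, 54.5% in Zfp984, 68.1% in Zfp988 and 82.2% in Zfp991 also occur in transcripts of other genes, against a median of 9.35% over the members. How reads shared between copies were counted is not given in the sources used here, so values of single genes in this group are uncertain.

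Promoters of the group are shown because they share sequence too, and because Zfp985 and its neighbours went different ways in the same libraries. The RefSeq table (GRCm38.p6, 250 bases before to 50 after the start) held promoters for 67 of the 77 members. The capitals mark the longest run shared by Zfp985, Zfp988, Zfp979 and Zfp984, which was chosen after the sequences were seen. Zfp985 is at chr4:147553027-147553326 (+), Zfp988 at chr4:147305354-147305653 (+), Zfp979 at chr4:147642459-147642758 (-), Zfp984 at chr4:147809739-147810038 (-), and Zfp933, the outermost member of the group, at chr4:147848369-147848668 (-).
Zfp985: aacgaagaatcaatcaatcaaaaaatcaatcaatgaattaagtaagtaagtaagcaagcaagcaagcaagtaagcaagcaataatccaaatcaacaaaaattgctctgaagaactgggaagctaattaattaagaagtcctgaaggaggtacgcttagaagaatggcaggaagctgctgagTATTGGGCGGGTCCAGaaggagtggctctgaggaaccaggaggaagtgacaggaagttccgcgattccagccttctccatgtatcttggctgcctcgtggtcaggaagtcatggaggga
Zfp988: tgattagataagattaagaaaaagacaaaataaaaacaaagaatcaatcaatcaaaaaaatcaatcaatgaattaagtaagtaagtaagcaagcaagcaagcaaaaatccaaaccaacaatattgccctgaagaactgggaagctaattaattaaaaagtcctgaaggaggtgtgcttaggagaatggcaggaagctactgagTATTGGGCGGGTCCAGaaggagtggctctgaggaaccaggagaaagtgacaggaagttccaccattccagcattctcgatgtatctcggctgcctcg
Zfp979: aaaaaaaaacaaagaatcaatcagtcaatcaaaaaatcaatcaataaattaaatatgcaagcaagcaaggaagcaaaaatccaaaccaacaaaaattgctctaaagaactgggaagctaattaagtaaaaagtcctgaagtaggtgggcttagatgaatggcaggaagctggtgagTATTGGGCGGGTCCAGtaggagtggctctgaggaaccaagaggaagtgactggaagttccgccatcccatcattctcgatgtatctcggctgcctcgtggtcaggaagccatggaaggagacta
Zfp984: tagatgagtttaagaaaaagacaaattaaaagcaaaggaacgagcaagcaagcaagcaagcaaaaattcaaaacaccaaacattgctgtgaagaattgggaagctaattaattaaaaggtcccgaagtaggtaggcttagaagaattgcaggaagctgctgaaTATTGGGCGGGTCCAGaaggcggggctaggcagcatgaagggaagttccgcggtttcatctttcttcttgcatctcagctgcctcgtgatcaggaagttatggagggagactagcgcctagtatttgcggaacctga
Zfp933: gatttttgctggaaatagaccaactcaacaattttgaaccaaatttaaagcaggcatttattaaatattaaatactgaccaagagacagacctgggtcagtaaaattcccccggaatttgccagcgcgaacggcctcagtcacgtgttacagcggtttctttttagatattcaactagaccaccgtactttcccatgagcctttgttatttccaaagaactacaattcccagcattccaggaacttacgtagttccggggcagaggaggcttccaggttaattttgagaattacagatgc
The run TATTGGGCGGGTCCAG, searched on both strands, is present in 9 of all 32851 promoters of that length in the table (0.0274%). Those are Zfp979, Zfp980, Zfp982, Zfp984, Zfp985 and Zfp988, with Rex2, Zfp600 and Gm13212, which are not members. It is present in 6 of the 9 members of the chromosome 4 group with a promoter and in 0 of the 58 other members with one. Of the 6, Zfp985, Zfp988, Zfp979 and Zfp984 hold it by construction, since the run was taken from them. Only Zfp980 and Zfp982 were added by the search. Identity to the Zfp985 promoter was 81.3% for Zfp979, 74.3% for Zfp988, 70.2% for Zfp984 and 46.8% for Zfp933. CG dinucleotides numbered 6 in the Zfp985 promoter, 4 in Zfp988, 5 in Zfp979, 9 in Zfp984 and 9 in Zfp933, against a median of 9 over members' promoters and 7 over all promoters.

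The reads recovered from the deposited values ran from 12183889 to 16390886 per library, of which the members took 0.0641% to 0.134%. Nlrc5 (ENSMUSG00000074151), the targeted gene, had 57.4 and 78.6 normalised counts with sgNlrc5 and 22.9 and 12.7 with sgScramble in TDM culture (limma adjusted p = 0.012). It averaged 3144 ± 2.71 and 248 ± 8.42 in TDMa culture (SD, n = 2 each). In TDMa tumours it averaged 3916 ± 445 and 577 ± 243 (SD, n = 4 each, limma adjusted p = 3.1e-05). Since the labels leave it unsaid whether a replicate is its own culture or its own mouse, p-values speak for the spread among these libraries, which may be technical. In tumours, sgNlrc5 replicates 1 and 2 stood apart from replicates 3 and 4 on the second principal component, which held 12% of the variance.

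The members differed widely in level. Per kilobase of exon, in normalised counts, the highest member in TDM culture was Zfp985, at 588 with sgNlrc5 and 527 with sgScramble, followed by Zfp869 at 389 and 387 and Zfp979 at 382 and 356. In TDMa culture Zfp985 was not among the 5 highest, and the first was Zfp869, at 336 with sgNlrc5 and 326 with sgScramble per kilobase. Zfp869 was also first in TDMa tumours, at 350.2 and 375 per kilobase. By normalised count alone, Zfp871 was the most abundant member in all 3 tables, and Zfp866 was among the 5 most abundant in TDMa culture and tumours. Of the 77 members, all of which were listed in TDM culture, 7 were not listed in TDMa culture and 9 were not listed in TDMa tumours. The chromosome 4 group made up 4 of the 7 (Zfp978, Zfp982, Zfp991 and Zfp993) and 6 of the 9 (Zfp978, Zfp980, Zfp981, Zfp982, Zfp986 and Zfp993). How many of all 13143 genes listed in TDM culture were not listed in the other tables was not counted.

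As a sum over its listed members, 13 in TDM and 9 in TDMa culture, the chromosome 4 group was far lower in TDMa culture with either guide. Single members differed in how far they were lower, Zfp933 the least. The tables were normalised separately, so levels across them are set side by side without a test. Summed over the listed members of the group, normalised counts were 894 and 1040 with sgNlrc5 and 756 and 731 with sgScramble in TDMa culture, against 5299 and 5026 with sgNlrc5 and 4827 and 4701 with sgScramble in TDM culture. The remaining members summed to between 11459 and 12439 in TDMa culture, against 13270 and 13909 in TDM culture. In TDMa tumours the group summed to between 490.1 and 687 with sgNlrc5, against 884 and 943 with sgScramble.

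Zfp985 had 125 and 112 normalised counts in TDMa culture with sgScramble, against 1578 and 1450 in TDM culture with the same guide. Zfp979 had 198 and 191, against 1467 and 1457. Zfp992 (ENSMUSG00000070605) had 28.7 and 28.5, against 365 and 384. All 3 were lower in both TDMa libraries than in both TDM libraries. Zfp991, at 350.2 and 370.2 in TDM culture with sgScramble, was not listed in TDMa culture, where the lowest listed gene had 20 reads over the table. Zfp933, at the edge of the group, differed least of its members tested in both cultures, at 205 and 192 in TDMa culture against 234 and 231 in TDM culture.

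On the scale of log2 of the mean normalised count + 1, TDMa minus TDM, the 7 members of the group tested in both cultures had a median of -1.39 with sgNlrc5 and -1.76 with sgScramble. The 60 other members had medians of -0.17 and -0.15, and all 11492 genes tested in both had medians of -0.09 and -0.10. A level at most -1 on that scale was seen in 9 of 67 members with sgNlrc5 (13.4%) and 8 of 67 with sgScramble (11.9%), against 4.48% and 3.75% of all genes. The group supplied 4 of those 9 and 6 of those 8. With sgScramble the others were Zfp873 and Zfp953, and with sgNlrc5 they were Zfp830, which the early mouse embryo needs, Zfp839, Zfp940, Zfp946 and Zfp963. Zfp985 is among the group's members in both counts. Its TDMa values chose the set, and the neighbour groups were formed after values were seen. These shares and medians are therefore a description. Genes that are not members but lie within the same stretch of chromosome 4 were fewer in TDMa tables too. Of 14 such genes listed in TDM culture, 6 were listed in TDMa culture and 5 in TDMa tumours. Apart from Znf41-ps, Gm13147 and Zfp600, the 14 averaged at most 29.9 normalised counts in TDM culture with either guide. Of the 6 listed in both cultures, 3 were at most -1 with sgScramble and 2 with sgNlrc5. The matching share of all genes listed in TDM culture was not counted. Zfp600 and Rex2, which carry the shared promoter run, were among those not listed in TDMa culture. So was Zfp534, whose promoter lacks the run, while Zfp979, Zfp984, Zfp985 and Zfp988, which carry it, were listed there. Whether the run goes with listing was not tested.

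**Figure D1:**
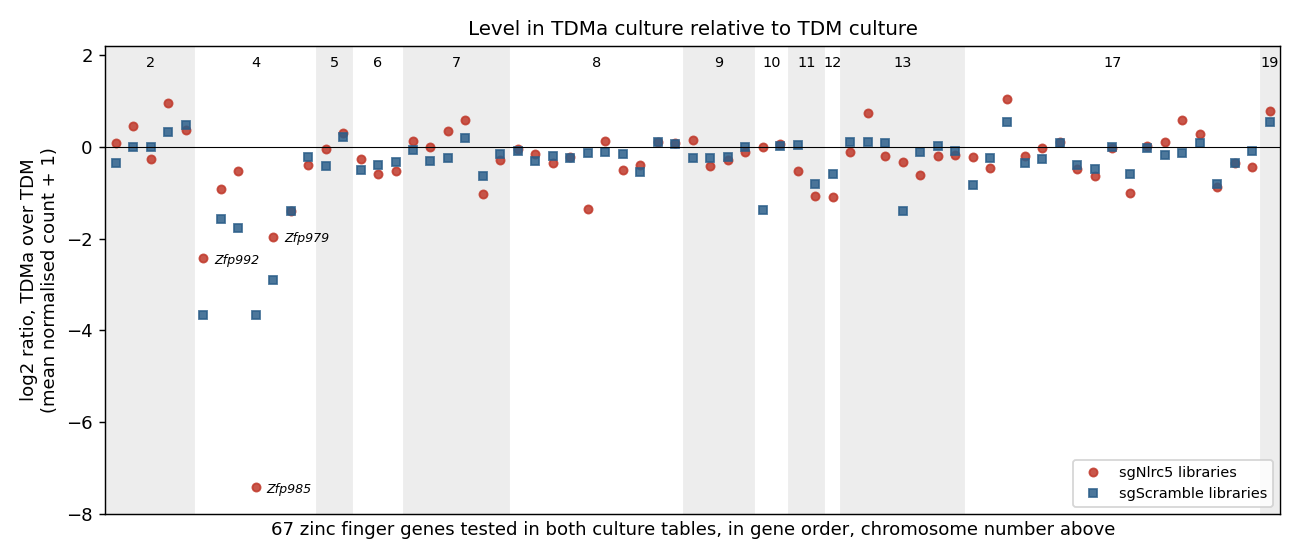
Log2 ratio of TDMa over TDM culture (mean normalised count + 1, y axis) for the 67 members tested in both, in gene order with chromosome numbers above, for sgNlrc5 (circles) and sgScramble (squares) libraries. Members of chromosome 4 reach -7.42, which is Zfp985 with sgNlrc5, from the libraries that chose the set. The members elsewhere lie between -1.40 and 1.04.

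In TDM culture none of the 77 tested members passed limma adjusted p 0.05 between the guides, where 62 of 11989 genes did (0.517%; 0.284% higher and 0.234% lower). At an unadjusted limma p under 0.05 there were 6 of the 77 members, beside 1084 of the 11989 genes. Limma voom on the recovered reads also called 0 members. The median log2 fold change was 0.01, with 42 members above 0 and 35 below. Guides did not overlap for 13 members on the higher and 13 on the lower side, beside 19.3% and 19.3% of all genes. Zfp985 had 1757 and 1617 normalised counts with sgNlrc5, against 1578 and 1450 with sgScramble. Both sgNlrc5 libraries were above both sgScramble libraries, but the difference of 0.16 ± 0.06 on the log2 scale did not pass (limma adjusted p = 0.48). The largest log2 fold change belonged to Zfp963, which had 40.5 and 40.7 normalised counts with sgNlrc5 and 27.3 and 11.7 with sgScramble. It stood 1.13 ± 0.39 higher on the log2 scale (limma adjusted p = 0.35). It passed when sgScramble replicate 1 was left out (1.72, limma adjusted p = 0.018, with 0.018 to 0.98 over the alternatives). That fit has 1 sgScramble library, at 11 reads, which is assumed to vary like the sgNlrc5 libraries. The retroviral silencers were close between guides. Zfp809 averaged 246 ± 39.2 with sgNlrc5 and 239 ± 25.5 with sgScramble, and Zfp932 averaged 224 ± 17.9 and 217 ± 16.7 (SD, n = 2 each).

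In TDMa culture, the contrast that picked the genes, Zfp985 had 8.99 and 8.72 normalised counts with sgNlrc5, which are 8 and 9 reads, against 125 and 112 with sgScramble. Both sgNlrc5 libraries lay far below both sgScramble libraries, and the log2 fold change was -3.60 ± 0.29. Zfp985 left out, 8 of the 66 other members in the fit were higher and 3 lower past limma adjusted p 0.05 (12.1% and 4.55%), a description from the contrast that chose the set, where 34.2% of all genes passed, 17.3% higher and 16.9% lower. Guides did not overlap for 24 of these members on the higher and 11 on the lower side, beside 33.3% and 33% of all genes. The median log2 fold change was 0.08 over these members and -0.00 over all genes. Of all genes called there, 50.5% were higher in this fit and 38.9% with voom.

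Neighbours of Zfp985 had the opposite sign in the same libraries. Zfp979 (ENSMUSG00000066000) had 373 and 433 normalised counts with sgNlrc5, against 198 and 191 with sgScramble, a log2 difference of 1.04 ± 0.11. Zfp992 had 60.7 and 78.5 with sgNlrc5, against 28.7 and 28.5 with sgScramble, a log2 difference of 1.24 ± 0.27. Zfp988 (ENSMUSG00000078498) had 39.3 and 53.3 with sgNlrc5, against 16.3 and 26.6 with sgScramble, a log2 difference of 1.10 ± 0.33. In each of these 3 the guides did not overlap, and the higher level with sgNlrc5 still lay below every TDM library of that gene. Zfp986, which was too low to test, had 18.0 and 11.6 with sgNlrc5, against 0 and 0.951 with sgScramble. Zfp984 and Zfp933 had log2 differences of 0.15 and 0.12.

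Among members elsewhere in the genome, Zfp873 was the most different. It had 56.2 and 48.4 normalised counts with sgNlrc5 in TDMa culture, against 15.3 and 21.9 with sgScramble. The other members past the threshold on the higher side were Zfp953, Zfp983, Zfp870 and Zfp871, with log2 differences from 0.21 for Zfp871 to 0.78 for Zfp953. Zfp871, the member with the most normalised counts in that table, had 2136 and 2224 with sgNlrc5, against 1833 and 1930 with sgScramble. On the lower side were Zfp940 at -0.61, Zfp867 at -0.56 and Zfp948 at -0.27. Of these 11 members past the threshold, Zfp873, Zfp979 and Zfp992 stayed past it under every alternative run, and the other 8 fell short under at least 1. Zfp983 fell short under 7 of 12 alternatives, voom among them, Zfp940 under 5 of 13, and Zfp948 and Zfp953 under 4 of 13.

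**Figure D2:**
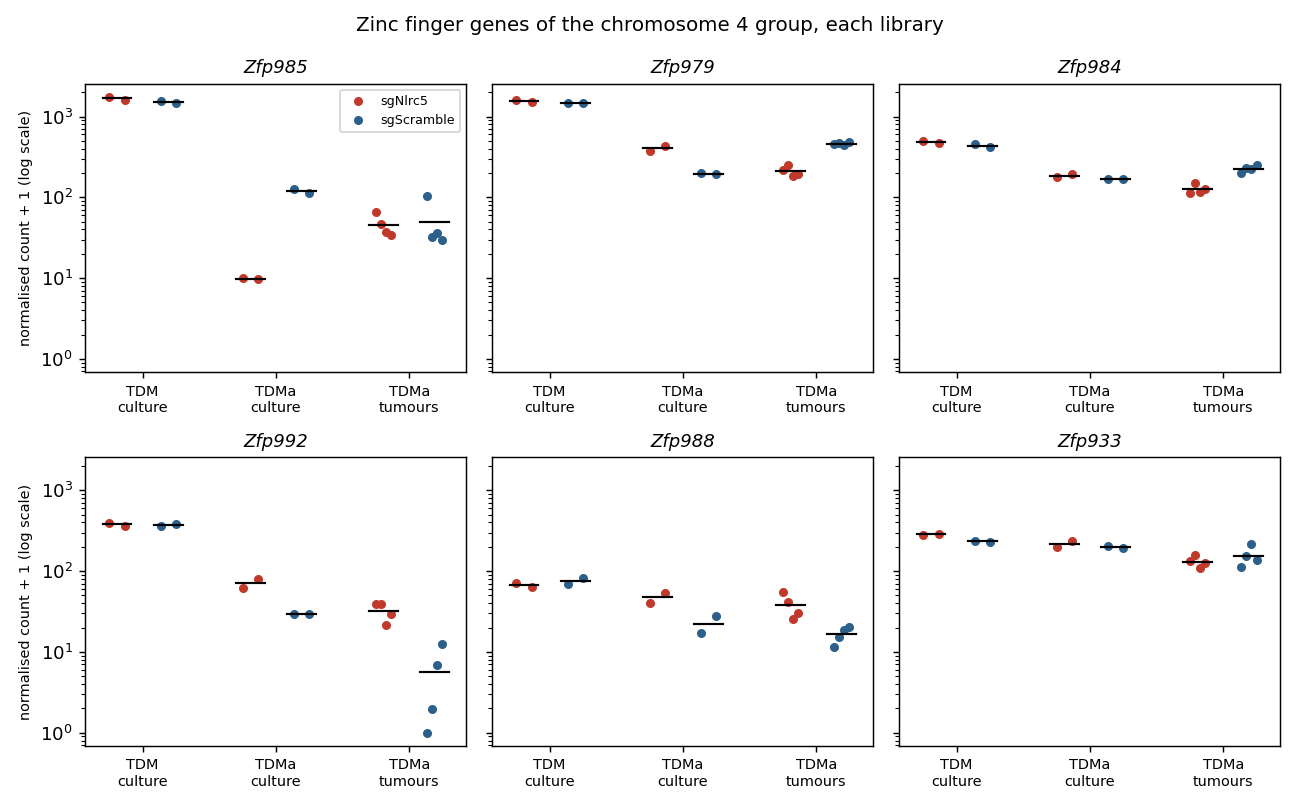
Normalised count + 1 (log y axis) of 6 members of the chromosome 4 group in each library, sgNlrc5 left of sgScramble within each table, with a line at the mean. Zfp985 is at 8.99 and 8.72 with sgNlrc5 in TDMa culture, Zfp979, Zfp992 and Zfp988 lie higher with sgNlrc5 there, and Zfp933 differs least between the TDMa and TDM cultures.

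In TDMa tumours the members were mostly lower with sgNlrc5. Of 67 tested, 23 fell and 2 rose past limma adjusted p 0.05 (34.3% and 2.99%), where 39.4% of all genes passed, 19.7% lower and 19.7% higher. Their median log2 fold change was -0.32, against -0.01 for all genes, with 51 below 0 and 16 above. Zfp genes with lower numbers had a median of -0.18, with 66 lower and 9 higher of 255 (25.9% and 3.53%). Whether the members differ from that wider family was not tested. Summed over members, normalised counts were 11703, 11132, 9212 and 9990 with sgNlrc5, against 12237, 12923, 13397 and 12756 with sgScramble. The 4 sgNlrc5 sums lay below the 4 sgScramble sums. Near the edge of the numbering, Zfp790, outside the set, averaged 186 ± 18.6 with sgNlrc5 and 180.4 ± 16.1 with sgScramble. Zfp800, the lowest-numbered inside it, averaged 224 ± 32.0 and 347 ± 12.9 (SD, n = 4 each). Whether levels break at that number was not tested.

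Summed markers of macrophages, T cells and leukocytes were also higher in the sgNlrc5 tumours. The 6 macrophage markers summed to between 12573 and 17611 normalised counts with sgNlrc5, against 3615 and 5657 with sgScramble. In TDMa culture Cd68 and Lyz2 of these were listed. They summed there to between 1034 and 1077, against 754 and 809, so the tumour sums may include melanoma cells. In the tumours all 6 T cell markers were listed and summed to between 233 and 916, against 37.2 and 57.7. The 4 leukocyte markers summed to between 2091 and 3537, against 507 and 1168. The 1 B cell marker and 3 endothelial markers tested did not pass limma adjusted p 0.05. Of 3 fibroblast markers tested, 1 was higher and 1 lower. The 7 melanoma markers summed to between 597997 and 953576, against 565550 and 637913, so the guides overlapped. Of these 7, 2 were higher and 1 lower past limma adjusted p 0.05, and 4 did not pass. The part of any of these cell types in the members' levels was not tested. In bulk tumours, fewer cells of a type and less RNA per cell cannot be told apart.

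Zfp979 had the smallest adjusted p among the members. It had 216, 253, 182 and 192 normalised counts with sgNlrc5, against 454, 467, 443 and 476 with sgScramble, and no library of one guide reached the other. On the log2 scale it fell by 1.14 ± 0.12 (limma adjusted p = 4.5e-05). Its sign was the reverse of that in TDMa culture, and the difference between tumour and culture was not tested because the culture contrast had served to choose the genes. Zfp984, its neighbour, had 113, 150.1, 115 and 125 with sgNlrc5, against 196, 232, 225 and 249.6 with sgScramble, and fell by 0.84 ± 0.14 on the log2 scale (limma adjusted p = 0.00072). Both genes were separated between the guides in the tumours.

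The 2 members that rose belong to the same chromosome 4 group. Zfp992 had 38.1, 38.6, 20.8 and 28.1 normalised counts with sgNlrc5, against 0, 0.955, 5.96 and 11.5 with sgScramble (log2 fold change 3.13 ± 0.70, limma adjusted p = 0.0044). Its size depends on the setting, from 2.06 with a pseudocount of 5 to 3.72 without sgScramble replicate 4, with limma adjusted p from 0.0013 to 0.017. Zfp988 had 54.1, 40.8, 24.4 and 29.1 with sgNlrc5, against 10.3, 14.3, 17.9 and 19.4 with sgScramble (1.18 ± 0.33, limma adjusted p = 0.013). Both were low, every sgNlrc5 library lay above every sgScramble library, and the call for Zfp988 was lost under quantile normalisation (0.75, limma adjusted p = 0.061, with 0.0092 to 0.061 over the alternatives). Zfp985 itself had 64.2, 46.1, 36.2 and 33.2 with sgNlrc5, against 102, 31.5, 34.8 and 28.2 with sgScramble. The guides overlapped and differed by 0.04 ± 0.38 on the log2 scale (limma adjusted p = 0.95), and sgScramble replicate 1 stood above every other tumour library. Without it the difference was 0.46 on the log2 scale (limma adjusted p = 0.23, with 0.23 to 0.99 over the alternatives).

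Outside the chromosome 4 group the largest decreases were in Zfp960 and Zfp808. Zfp960 had 44.1, 26.8, 15.4 and 29.1 normalised counts with sgNlrc5, against 94.2, 86.9, 70.6 and 85.6 with sgScramble (log2 fold change -1.60 ± 0.28, limma adjusted p = 0.0012). Of its transcript 50-mers 82.7% also occur in other transcripts, most in its close copy Zfp97, so the pair may share reads. Zfp808 had 27.1, 46.1, 18.1 and 14.1 with sgNlrc5, against 67.8, 55.4, 85.5 and 49.4 with sgScramble (-1.37 ± 0.34, limma adjusted p = 0.0081). In both the guides were separate.

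A neighbour group of 10 members on chromosome 17 held 6 of the 23 that fell, with a median log2 fold change of -0.57 over its members. Of all tested members 34.3% fell, and of all genes 19.7%. In some other groups none fell, such as the 4 members on chromosome 2, with a median of -0.37. The groups were formed after values were seen, so these counts are a description. Zfp995 had 113, 81.5, 81.4 and 94.4 normalised counts with sgNlrc5, against 171, 168, 172 and 173 with sgScramble (-0.89 ± 0.15, limma adjusted p = 0.00072). Zfp994 had 159, 98.7, 81.4 and 86.4 with sgNlrc5, against 176, 181, 245 and 188 with sgScramble (-0.92 ± 0.21, limma adjusted p = 0.0046). The guides did not overlap in either gene. The other 4 of the chromosome 17 group that fell were Zfp946 (-0.83), Zfp947 (-0.79), Zfp942 (-0.60) and Zfp948 (-0.54). The last was also lower in TDMa culture. Zfp955a (-0.47) and Zfp955b (-0.82), a pair of copies in another neighbour group of the same chromosome, fell as well.

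On chromosome 8, Zfp930 had 289, 227, 157 and 199 normalised counts with sgNlrc5, against 432, 391, 367 and 409 with sgScramble (-0.90 ± 0.16, limma adjusted p = 0.0012). The remaining members that fell were Zfp958, Zfp825, Zfp800, Zfp850, Zfp830, Zfp937, Zfp839, Zfp867, Zfp868 and Zfp951, with log2 fold changes from -0.70 for Zfp958 to -0.35 for Zfp951. The human ortholog of Zfp800 is known to restrain enteroendocrine differentiation. Guides that do not overlap were seen for 21 members on the lower side and 2 on the higher side, where 19.1% and 18.1% of all tested genes had them. Calls at the margin were those of Zfp937 (limma adjusted p = 0.0496), Zfp955a (0.048), Zfp867 (0.042) and Zfp951 (0.041), each of which was lost when single libraries were left out.

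Several members with the best known roles did not pass in the tumours. Zfp809 averaged 209 ± 19.4 normalised counts with sgNlrc5 and 217 ± 26.5 with sgScramble (log2 fold change -0.05 ± 0.13, limma adjusted p = 0.78). Zfp932 averaged 202 ± 45.6 and 205 ± 20.3 (-0.05 ± 0.17, limma adjusted p = 0.85). Zfp961, which in mice binds the lysine primer binding site, averaged 285 ± 30.6 and 339 ± 45.8 (-0.25 ± 0.12, limma adjusted p = 0.14; SD, n = 4 each). Zfp871 averaged 1625 ± 47.5 and 1756 ± 237. Zfp950 differed within the sgNlrc5 tumours more than between guides, with 421, 395, 154 and 169 in sgNlrc5 libraries 1 to 4, against 238, 325, 342 and 295 with sgScramble. Its high and low libraries are the pairs that stood apart on the second principal component.

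**Figure D3:**
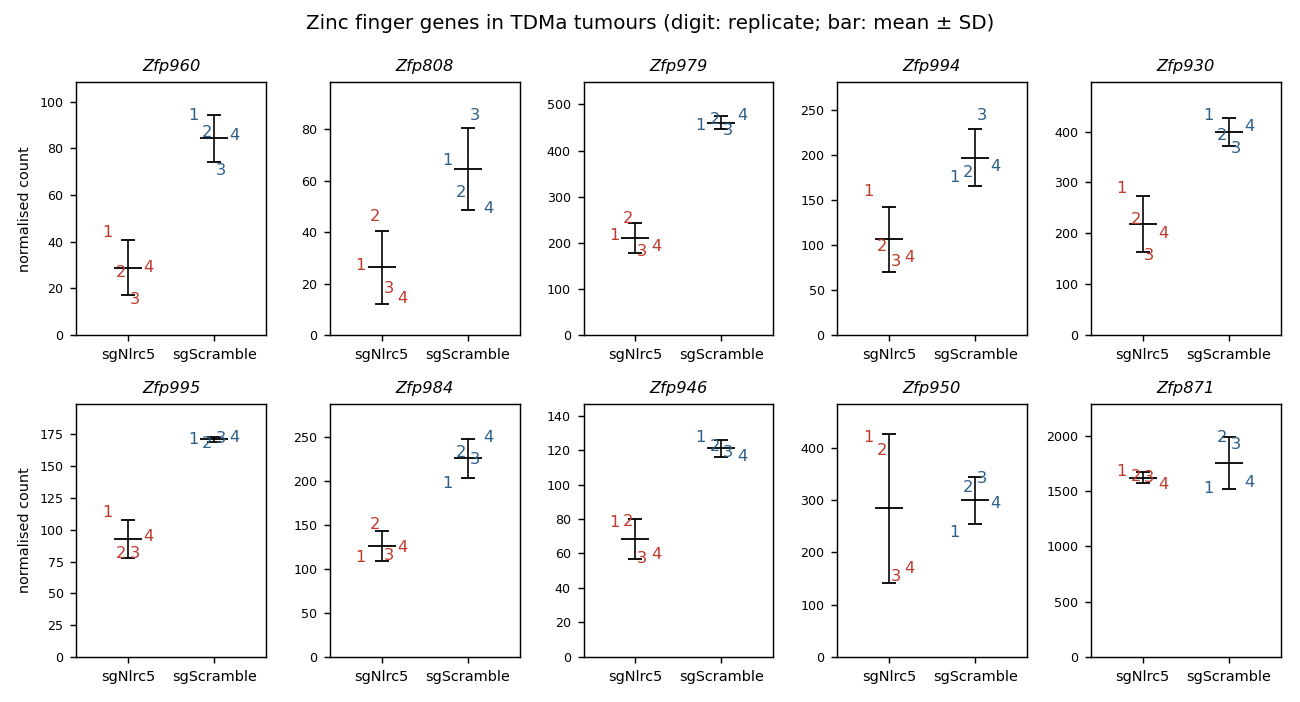
Normalised count (y axis from 0) of 10 members in the TDMa tumours, sgNlrc5 left of sgScramble, with each digit a replicate and the bar the mean ± SD. The first 8 genes were separate between guides and lower with sgNlrc5, Zfp950 was split within sgNlrc5, and Zfp871 overlapped.

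**Figure D4:**
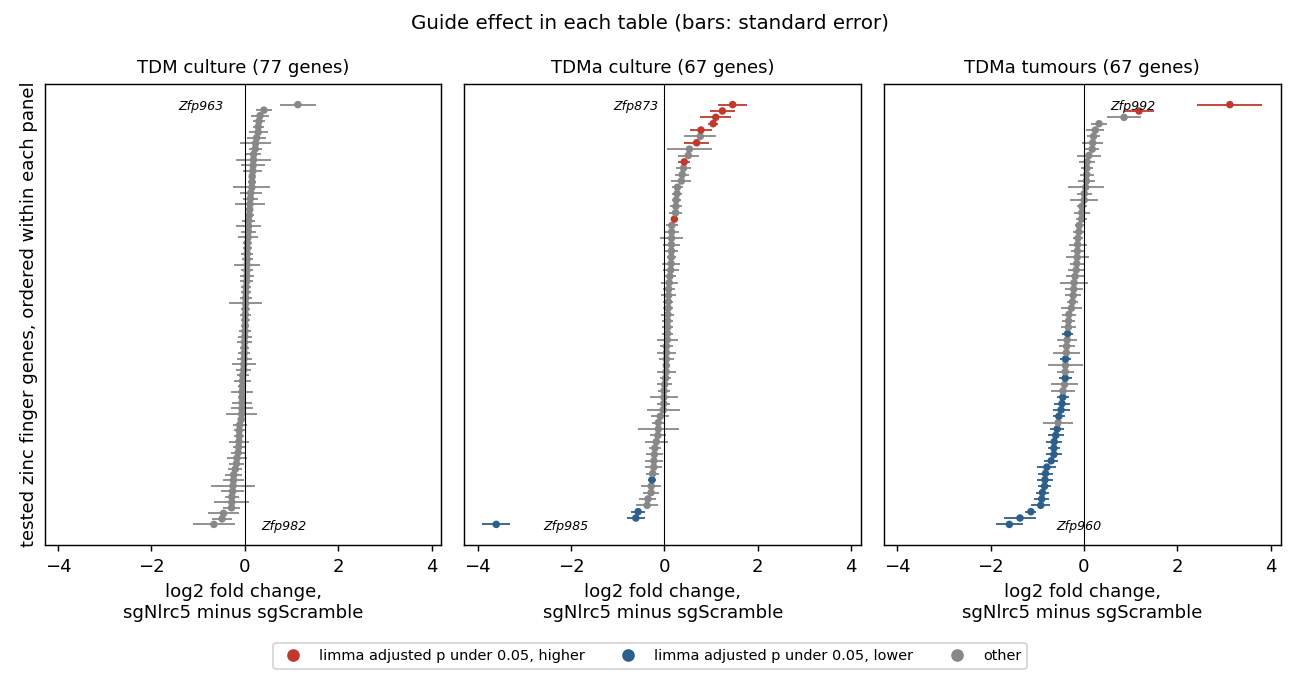
Log2 fold change, sgNlrc5 minus sgScramble (x axis, bars are standard errors), of each tested member in TDM culture (77), TDMa culture (67) and TDMa tumours (67), ordered within each panel. No member is coloured in TDM culture, Zfp985 stands alone at -3.60 in TDMa culture, and 23 members are coloured lower in the tumours.

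The machinery that KRAB zinc finger proteins recruit was read from a list of 30 genes, of which 29 were tested in each table. In TDM culture 0 of the 29 passed, by limma and by voom, where 0.517% of all genes passed by limma. At an unadjusted limma p under 0.05 there were 3, beside 1084 of all 11989 genes. In TDMa culture 6 were higher and 7 lower (20.7% and 24.1%), beside 17.3% and 16.9% of all genes. Dnmt1, the maintenance DNA methyltransferase, averaged 5179 ± 94.8 normalised counts with sgNlrc5 and 4354 ± 40.4 with sgScramble there (SD, n = 2 each). Chd3, a NuRD remodeller, averaged 1721 ± 54.2 and 2077 ± 95.5. Without the intensity trend only 1 of the list passed in TDMa culture.

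In TDMa tumours 15 of the 29 fell (51.7%) and 0 rose, where 19.7% of all genes fell. The list's median log2 fold change was -0.32. Mphosph8, the HUSH subunit that reads H3K9 methylation, had 176, 202, 136 and 208 normalised counts with sgNlrc5, against 652, 542, 581 and 434 with sgScramble (-1.61 ± 0.16, limma adjusted p = 3.6e-05). The HP1 genes Cbx1 and Cbx3 fell by 0.60 and 0.64 on the log2 scale, and Smarcad1, a remodeller that binds TRIM28, fell by 0.57. Trim28, the core of the complex, averaged 2691 ± 409.5 with sgNlrc5 and 3302 ± 249 with sgScramble (SD, n = 4 each; -0.30 ± 0.11, limma adjusted p = 0.044) with guides that overlapped. Setdb1 did not pass, at -0.18 ± 0.08 on the log2 scale (limma adjusted p = 0.10).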

How the data were processed

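RNA was sequenced from B16F10-TDM and B16F10-TDMa cultures and B16F10-TDMa tumours with sgNlrc5 or sgScramble. Per the labels' protocols, libraries were made with a directional kit. The deposited values are log2 of the normalised count + 1, per the file headers, with cultures of either line and the tumours in a table each. DESeq2 1.36.0, STAR 2.7.10a, FastQC 0.12.0, mm39 and GRCm39 are named, without roles, per the submitters' processing notes. Annotation, counting tool and strand setting are not given in the sources used here.

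Undoing the logarithm gave normalised counts, from which whole reads were recovered (100% of values up to 2000 steps lay within 0.1 of a read), giving 12183889 to 16390886 reads per library over listed genes. In R 4.3.3, limma 3.58.1 was run on the deposited log2 values table by table, after dropping genes whose normalised counts averaged under 10 (leaving 11989, 12138 and 13385 genes). The fit had an intensity trend, was two-sided and took sgNlrc5 minus sgScramble, with Benjamini-Hochberg adjustment over all genes and a threshold of 0.05. Errors after a log2 fold change are standard errors, and fold changes on this scale understate low genes. Alternatives were pseudocounts, filters, no trend, quantile and equal-sum scaling, voom on recovered reads, a replicate block and leaving out each library. The fit was tested on simulated counts, as a step before the real tables.

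The members and lists were chosen with earlier results of these data known. Named were Nlrc5, Zfp985 and its neighbours, members past the threshold in TDM culture or tumours, in each table the 8 per direction with the largest change among those past it that averaged at least 50 with 1 guide and did not overlap, the 5 most abundant, and up to 4 corepressor genes per table. No protein table was used. Members with known roles, and those split within a group, were added after their values were seen, as were the neighbour groups. Gene order and exon lengths are from GENCODE vM21, an earlier build than the authors', so coordinates are given only for RefSeq promoters. Same-numbered libraries did not deviate together.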

Additional observations from a re-analysis of the deposited data

Results flagged for a closer look

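The tumour values were read as 92 sets of 4, each set being 1 named member with 1 guide. In 4 sets a library's gap to the nearest of the others passed a cutoff on its share of the set's range. In these 4 the gap took up 0.89 to 0.91 of the range. Chance passes that cutoff in about 1 in 20 independent sets, but these sets share the same tumour libraries and are not independent. Zfp985 had 102 normalised counts in sgScramble replicate 1, against 28.2 to 34.8 in the other sgScramble tumours. Zfp809 had 256 in sgScramble replicate 1, against 201 to 207 in the others. Zfp825 had 82.6 in sgNlrc5 replicate 2, against 73.2 to 74.1, and Zfp940 had 56.8 in sgNlrc5 replicate 2, against 41.6 to 43.2.

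Some members lay on opposite sides by guide in different tables, with no overlap in either. None of these differences was tested. Between tumours and TDMa culture, the log2 fold changes were -1.14 and 1.04 for Zfp979, -1.60 and 0.51 for Zfp960, -0.90 and 0.15 for Zfp930, and -0.84 and 0.15 for Zfp984. They were -0.64 and 0.25 for Zfp800, -0.64 and 0.24 for Zfp850, -0.60 and 0.28 for Zfp942, -0.49 and 0.14 for Zfp937, and -0.35 and 0.25 for Zfp951. Between TDMa culture and TDM culture they were -3.60 and 0.16 for Zfp985, and 0.42 and -0.28 for Zfp870. Between tumours and TDM culture they were -1.37 and 0.33 for Zfp808, -0.82 and 0.10 for Zfp955b, -0.45 and 0.30 for Zfp839, -1.14 and 0.10 for Zfp979, and -0.84 and 0.15 for Zfp984. None of the TDM culture values passed in their own table. Of the TDMa culture values set against tumours, only that of Zfp979 passed in its own table.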

How the results depend on the processing

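No result changed direction past its threshold. Of the 25 members called in TDMa tumours, 18 were called under every alternative that could be run, and Zfp867, Zfp868, Zfp937, Zfp942, Zfp951, Zfp955a and Zfp988 were lost under at least 1. The members called in tumours numbered 21 to 24 when each library was left out, 30 under quantile normalisation (1 higher and 29 lower) and 21 with a mean count of at least 50. In TDMa culture members called were 7 to 11 with a library left out and 7 without the intensity trend, and in TDM culture 0 to 1. Median log2 fold changes with a library left out were -0.374 to -0.218 in tumours, 0.0177 to 0.132 in TDMa culture and -0.0241 to 0.0441 in TDM culture, and 0.155 under quantile normalisation in TDMa culture. Corepressor genes called were 11 to 17, 7 to 13 and 0 to 1, and 1 in TDMa culture without the intensity trend. Equal sums gave 7 higher and 4 lower members in TDMa culture, with 38.8% of all called genes higher.

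Replicate numbers share no stated source. Correlations of same-numbered deviations were -0.0238 in TDM culture, -0.0152 in TDMa culture and -0.207 to 0.109 in tumours. With a replicate block, 1 corepressor gene was called in TDM culture, and 0, 16 and 21 members were called in TDM culture, TDMa culture and tumours. All genes called in TDM culture were 122 with the block, 2 without the trend, and 102 and 130 without sgScramble replicate 1 or sgNlrc5 replicate 2, against 62. In TDMa culture 1581 were called without the trend, against 4156. The causes were not tested. A culture fit without 1 library leaves a guide with a lone library, assumed to vary like the others. Depth limits Zfp985 in TDMa culture with sgNlrc5, which rests on 8 and 9 reads.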
